A study of Mus musculus with 8 samples.

Results

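Gained intergenic regions are stretches of DNA between protein-coding genes that carried H3K27ac peaks in both libraries of activated muscle stem cells (ASC) and in neither library of freshly isolated muscle stem cells (FISC). The 4 peak lists were merged where peaks shared at least 1 base. A merged region was kept when its midpoint lay more than 2 kb from every end of a protein-coding gene and outside every such gene. This gave 6029 regions, or 27.5% of the 21911 intergenic regions, out of 72585 merged regions in all. Gained regions at any place numbered 14455, or 19.9% of all merged regions, and 41.7% of them were intergenic. The regions were chosen by the presence and absence of peaks, so their number and their ASC enrichment describe the choice and were not tested.

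The ASC libraries came from muscle stem cells of C57BL/6 mice taken 2.5 days after injury of skeletal muscle with barium chloride, a salt that kills muscle fibres. The FISC libraries came from the same cell type and strain taken fresh from untreated muscle. Each condition had 2 H3K27ac libraries and 2 input libraries, 8 samples in all, and only the 4 H3K27ac libraries entered the comparisons. The labels give neither age nor sex, nor the marker used for isolation, nor whether animals were pooled, so the spread between 2 libraries may be technical. The ASC cells differ from the FISC cells both in their state and in the injured tissue around them, and these cannot be told apart.

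Muscle stem cells, also called satellite cells, rest beneath the sheath of the muscle fibre and enter the cell cycle after injury to rebuild fibres. H3K27ac is an acetyl group on lysine 27 of histone H3. It marks active promoters and active enhancers, and the enhancers can lie far from the gene they act on. Intergenic regions that acquire the mark are therefore candidates for enhancers, and neighbouring regions often act on the same gene.

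The peak lists fitted the labelled cell type at its marker genes. Of 8 muscle stem cell markers examined, 7 had a covered start in both ASC libraries, against all 8 in both FISC libraries. The one uncovered in ASC was Calcr, a receptor of resting satellite cells. The 4 kb window around the start of Pax7, the defining transcription factor of the lineage, had 3.25 and 3.40 kb under peaks in the ASC libraries, against 3.23 and 3.64 kb in the FISC libraries. Of 23 markers of other cell types, 4 and 6 had a covered start in the ASC libraries, against 6 in each FISC library, and their summed covered length was 6.65 to 7.85 kb in ASC against 8.40 to 8.54 kb in FISC. The starts of Pecam1, Cdh5, Ptprc, Itgam, Cd3e, Pdgfra and Sox10, which define endothelial, blood, fibro-adipogenic and Schwann cells, were covered in no library. A smaller share of cells with a mark and a weaker mark in each cell cannot be told apart in these libraries of many cells. Read depth is unknown, since the files hold peaks only.

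Noncoding RNA genes showed what some of the regions contain. Hairpins of 4 microRNAs lay inside gained regions, out of 1005 hairpins in the RefSeq table of GRCm38.p6. Mir29a and Mir29b-1 lay together in the region at chr6:31061362-31063579. MicroRNAs bind messenger RNAs mainly through the seed, bases 2 to 8, and the miR-29 family is known for targeting transcripts of collagens and other matrix proteins. The mature sequences are shown 5′ to 3′ because the main arms of both hairpins have the same seed, in capitals.
miR-29a-3p: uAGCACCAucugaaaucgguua
miR-29b-3p: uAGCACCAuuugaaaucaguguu
miR-21c: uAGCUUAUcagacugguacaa
miR-6347: cAGUGCGGcuggcuggagaugc
The region with the miR-29 hairpins had fold enrichments of 9.55 and 8.03 in ASC libraries 1 and 2. The region with Mir6347, at chr1:167288172-167290472, had 15.03 and 13.7, and the one with Mir21c, at chr8:128277641-128278276, had 2.47 and 3.88. The last was thus among the weakest gained regions, and the FISC lists hold no peak at any of these places.

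Starts of long noncoding RNAs (lncRNAs) gave a view of the DNA under the peaks, since a sequence window of 300 bases was at hand for each annotated start. There were 73 such windows inside gained regions, belonging to 69 lncRNA genes. AP-1, the dimer of Fos and Jun proteins that binds the letters TGANTCA, is induced by injury and growth signals in many tissues. The windows below, 250 bases before to 50 after the start on the gene's own strand, are shown because they hold those letters, in capitals, in strongly marked regions or more than 1 time. A530046M15Rik and Gm29906 were picked after their values were seen.
Gm9875, chr2:13558653-13558952, plus strand: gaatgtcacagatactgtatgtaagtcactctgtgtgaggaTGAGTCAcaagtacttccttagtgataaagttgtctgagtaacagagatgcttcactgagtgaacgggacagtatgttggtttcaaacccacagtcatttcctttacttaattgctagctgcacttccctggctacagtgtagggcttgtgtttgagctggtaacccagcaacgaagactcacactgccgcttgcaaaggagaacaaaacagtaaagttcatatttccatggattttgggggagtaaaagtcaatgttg
Gm12415, chr4:84741225-84741524, plus strand: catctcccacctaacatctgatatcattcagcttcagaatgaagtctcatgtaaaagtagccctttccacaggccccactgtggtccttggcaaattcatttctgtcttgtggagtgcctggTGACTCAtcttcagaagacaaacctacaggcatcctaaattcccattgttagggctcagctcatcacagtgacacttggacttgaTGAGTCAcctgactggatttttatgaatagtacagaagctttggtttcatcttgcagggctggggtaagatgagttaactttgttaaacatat
A530046M15Rik, chr13:15806993-15807292, plus strand: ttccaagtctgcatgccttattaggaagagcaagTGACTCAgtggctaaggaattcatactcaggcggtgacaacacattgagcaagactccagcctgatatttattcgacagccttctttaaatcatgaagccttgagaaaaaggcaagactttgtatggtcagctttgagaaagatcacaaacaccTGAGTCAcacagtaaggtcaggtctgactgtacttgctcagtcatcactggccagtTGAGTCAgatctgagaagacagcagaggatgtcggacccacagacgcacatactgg
Gm29906, chr1:70918460-70918759, minus strand: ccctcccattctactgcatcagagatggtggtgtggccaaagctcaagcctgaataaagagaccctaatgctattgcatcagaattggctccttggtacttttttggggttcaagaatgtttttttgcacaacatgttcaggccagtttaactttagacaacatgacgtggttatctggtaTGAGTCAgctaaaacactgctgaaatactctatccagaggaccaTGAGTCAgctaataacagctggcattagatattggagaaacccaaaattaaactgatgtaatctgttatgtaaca
Gm9875 has 1 match, Gm12415 and Gm29906 have 2 each, and A530046M15Rik has 3. The regions around them had fold enrichments of 24.0 and 16.7 for Gm9875, 13.8 and 13.6 for Gm12415, 11.1 and 8.29 for A530046M15Rik, and 11.7 and 9.32 for Gm29906, ASC library 1 first. The window of Wincr1, the lncRNA that starts in the widest gained region, held no AP-1 letters.

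The AP-1 letters stood in 16 of the 73 windows in gained regions, or 21.9% (95% Wilson interval 14.0 to 32.7%). They stood in 34 of 316 lncRNA windows in intergenic regions covered in all 4 libraries, or 10.8% (7.80 to 14.7%). Over all 11588 lncRNA windows the share was 9.31% (8.80 to 9.85%), and over all 32851 windows of annotated starts it was 7.81%. The interval of the gained regions lay above that of all lncRNA starts and overlapped that of the shared regions. The other letters are given in the same way, gained regions first. The Tead letters GGAATG were in 28.8% of windows (19.7 to 40.01%) against 16.6% of all lncRNA windows (16.0 to 17.3%). Their share in shared regions was 19.0%. The first interval lay above that of all lncRNA starts and overlapped that of the shared regions. With 1 window per gene the Tead share in gained regions was 26.1% (17.2 to 37.5%). That interval overlapped the one of all lncRNA starts. The MyoD-type E-box CAGCTG was in 20.5% against 17.7% of all lncRNA windows and 24.1% in shared regions. The Runx letters TGTGGTT were in 9.59% against 6.29%, and the nuclear factor I letters TTGGCA in 21.9% against 16.0%. The Rbpj letters TGGGAA were in 27.4% against 27.5%, the Stat letters TTCNNNGAA in 6.85% against 9.41%, and the Hes and Hey E-box CACGTG in 8.22% against 5.89%. The Ets letters CCGGAA, common at broadly active promoters, were in 9.59% against 7.94%, and in 20.3% of windows in shared regions. Median GC content was 49.3% in gained regions, against 54.0% in shared regions and 48.3% over all lncRNA starts. Both strands were searched, matches of different motifs may overlap, and the intervals cover counting error only. A match is a description and no evidence of binding.

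The gained regions made up a large share of the intergenic H3K27ac of activated cells. Peaks covered 11.9 and 14.2 Mb of intergenic DNA in ASC libraries 1 and 2, against 6.44 and 6.45 Mb in the FISC libraries. Gained regions held 4.88 and 5.47 Mb of this in ASC, or 41.1 and 38.4%, and 0 Mb in FISC by their choice. Outside them the ASC libraries covered 6.98 and 8.76 Mb, against 6.44 and 6.45 Mb in FISC. Both lengths depend on the choice of regions, so they are a description with no test. The reverse class, intergenic regions with peaks in both FISC libraries and in no ASC library, numbered 1834, or 8.37% of intergenic regions. A further 5093 intergenic regions had a peak in 1 ASC library only, against 3412 in 1 FISC library only.

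**Figure D1:**
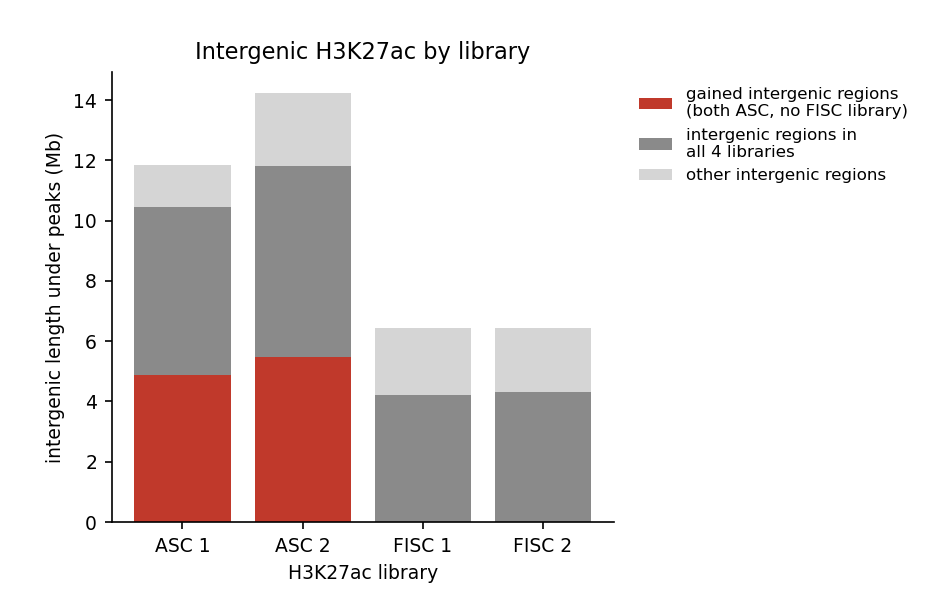
Intergenic length under H3K27ac peaks (Mb) in each of the 4 libraries, split into gained intergenic regions, intergenic regions with peaks in all 4 libraries, and the rest. Gained regions fill 4.88 and 5.47 Mb of the 2 ASC bars, while regions present in all libraries also have more length under peaks in ASC.

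Places marked in all 4 libraries also had more bases under peaks and higher folds in the ASC libraries. The 3558 intergenic regions shared by all libraries had 5.57 and 6.33 Mb under peaks in ASC, against 4.23 and 4.33 Mb in FISC, a ratio of 1.39 between the means. Their median fold enrichment was 8.42 and 9.32 in ASC, against 5.92 and 6.28 in FISC. Groups did not overlap in either measure, with an exact 2-sided permutation p of 0.333 for each, the smallest value that 2 against 2 libraries allow. Whole lists differed in the same way, with 50154 and 54700 peaks covering 49.2 and 57.7 Mb in ASC, against 45014 and 43092 peaks covering 34.4 and 33.7 Mb in FISC. This difference in peak calling moves with the gain, and its part in the gain was not tested. Fold also depends on read depth, which is unknown, and the part of depth in the higher folds was not tested.

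The number of gained regions depended on how the lists were matched. With only the strongest peaks of each list kept, at an equal peak number, 4828 regions were gained and 2074 were lost. At the same covered length, 33.7 Mb per list, 36.1 and 26.5% of ASC peaks remained, against 95.1 and 100% of FISC peaks. Then 728 intergenic regions were gained and 4105 lost, so the excess of gained over lost regions was reversed. Asking for a fold of at least 5 left 3607 gained regions, and without ASC library 1 there were 9486. Lost regions numbered 602 at that fold, 1120 at −log10 q of at least 5, 3380 without FISC library 1 and 3700 without FISC library 2.

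The 2 ASC libraries gave the gained regions similar places and strengths. Median fold enrichment, the peak caller's ratio of reads at the summit to local background, was 5.11 in ASC library 1 and 5.31 in library 2. These medians stood at the 45.7th and 51.5th percentile of all peaks of their library, near the middle of each list. Fold enrichments of single regions ran from 1.53 to 34.0 in library 1 and from 1.47 to 31.1 in library 2. Across regions the folds of the 2 libraries had a Spearman correlation of 0.766 and the covered bases one of 0.826, given as a description over 6029 regions that share both libraries. Summits lay a median of 81 bases apart, and 79.7% lay within 200 bases. Library 2 covered more bases in 64.7% of regions but had the higher fold in 50.9%.

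**Figure D2:**
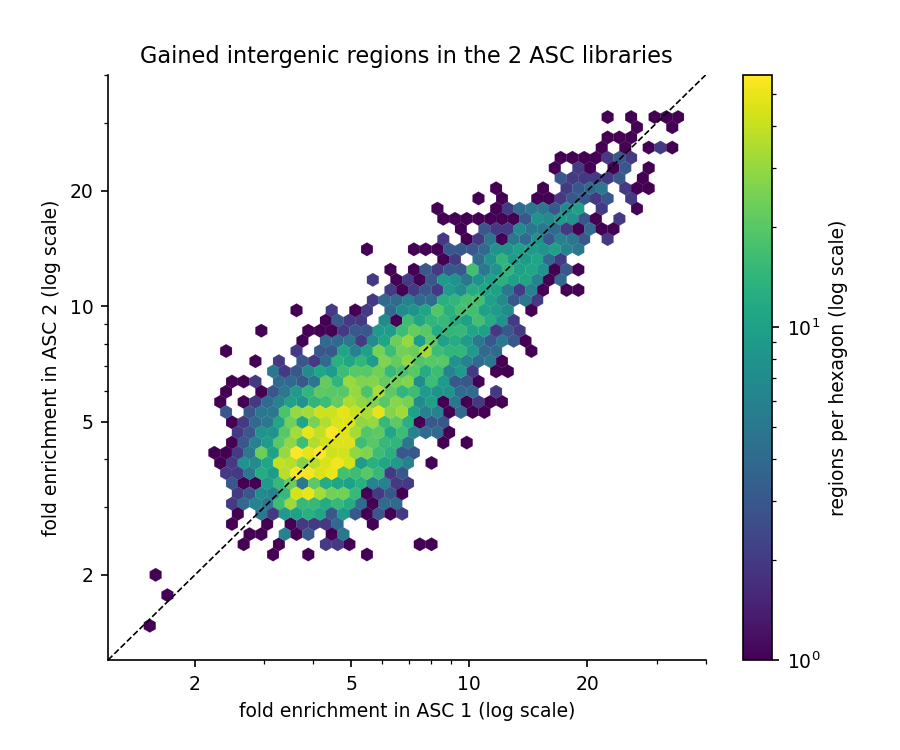
Fold enrichment of the 6029 gained intergenic regions in ASC library 1 and ASC library 2, both on log scales, with colour for the number of regions in each hexagon and a dashed line of equality. The regions lie along the line, with medians of 5.11 and 5.31 and most regions below a fold of 10.

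Strongly marked gained regions were a minority. Both ASC libraries reached a fold of 10 in 618 regions, or 10.3%, and a fold of 20 in 48. The share at a fold of 10 was 8.39% of the 7178 gained regions inside gene bodies and 38.8% of shared intergenic regions. In 2679 gained regions, or 44.4%, both ASC folds exceeded the median fold of all peaks in either FISC library (at most 4.97). In 745 regions, or 12.4%, an ASC fold lay under 3.33, the higher 5th percentile of the FISC lists. Gained regions thus span peaks well above and peaks close to the weakest that were called in FISC.

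Gained regions were narrow in most places. Their median width was 701 bases with quartiles of 481 and 1272, and together they spanned 6.04 Mb. Widths were 727 bases at the median for gained gene-body regions, 590 for lost intergenic regions and 1631 for shared intergenic regions. A width over 2 kb was found in 650 gained regions, or 10.8%, and over 5 kb in 19. The wide regions were also the strong ones, with median folds of 12.54 and 12.69 in the 2 ASC libraries, and width and the lower of both folds had a Spearman correlation of 0.730 across regions.

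Distances to genes were long. The median gap between the midpoint of a gained region and the nearest protein-coding gene was 35.5 kb, with quartiles of 12.52 and 101 kb. Lost intergenic regions had a median of 38.1 kb and shared intergenic regions one of 28.1 kb. A gene lay within 10 kb of 1229 gained regions, or 20.4%, and 1510, or 25.05%, were over 100 kb from any gene. Median folds in ASC libraries 1 and 2 were 5.11 and 5.18 within 10 kb of a gene, 5.37 and 5.44 between 10 and 100 kb, and again 5.11 and 5.18 beyond 100 kb. A lncRNA gene overlapped 1279 gained regions, or 21.2%, against 24.2% of lost and 29.8% of shared intergenic regions. The whole start window of a lncRNA lay in 68 gained regions, or 1.13%. That share was 0.763% in lost and 7.48% in shared intergenic regions.

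Most gained regions lay more than 2 kb from any FISC peak, and by their choice none overlapped one. The nearest FISC peak was a median of 16.9 kb away, and 1502 regions, or 24.9%, had none within 50 kb. A FISC peak lay within 2 kb of 787 gained regions, or 13.1%. Lost intergenic regions lay closer to the other condition, with an ASC peak at a median of 8.90 kb and within 2 kb in 23.9%. Gained gene-body regions had a FISC peak at a median of 10.05 kb. The ASC lists cover more of the genome than the FISC lists, and the part of this density in the shorter distances was not tested.

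Gained regions lay close to each other. The nearest other gained intergenic region was a median of 7.34 kb away, against 5.56 kb between gained gene-body regions and 28.3 kb between lost intergenic regions, which are fewer. Regions with gaps of at most about 13 kb, a distance in common use for joining enhancers, were joined into 4028 clusters, of which 2678 held 1 region. The other 1350 clusters held 3351 regions, or 55.6%, and the largest held 12. Many neighbours are close, with 33.8% of gained regions within 0.5 kb of another. With peaks joined within 500 bases the share in clusters was 30.6%, and at equal covered length it was 14.4%. Among lost intergenic regions 41.3% lay in clusters of at least 2 joined by the same gap, and among gained gene-body regions 59.1% did.

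**Figure D3:**
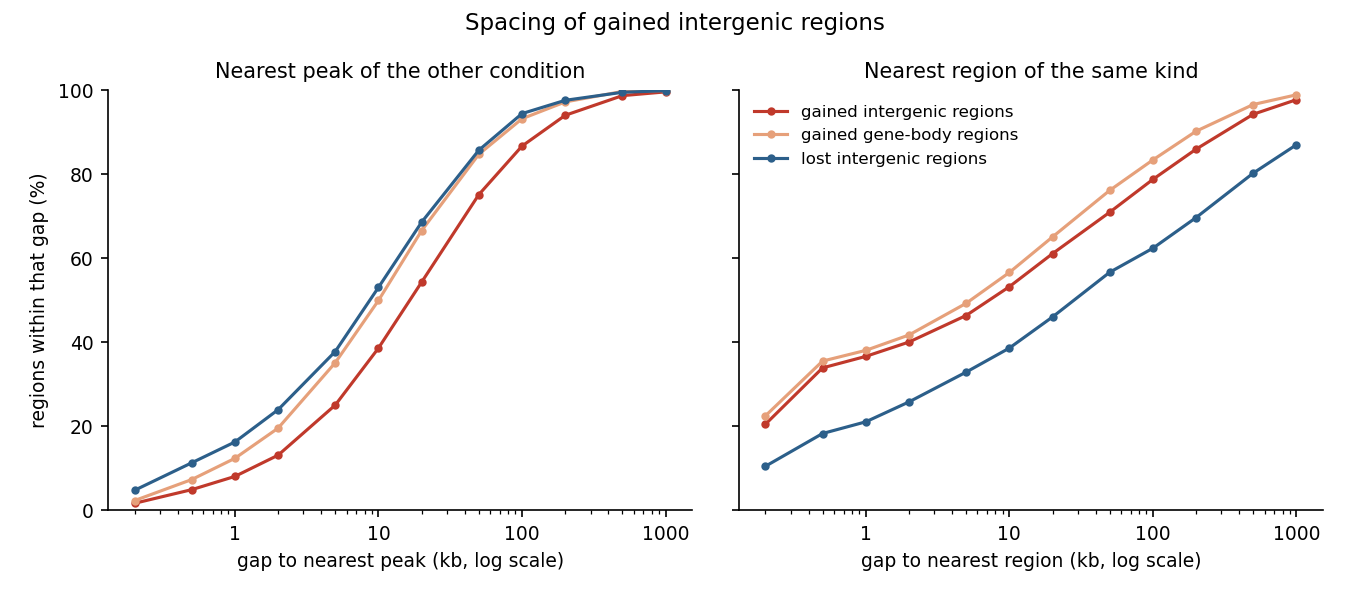
Cumulative percentage of regions within a given gap, on a log scale in kb, of the nearest peak of the other condition (left) and of the nearest region of the same kind (right). Gained intergenic regions lie farther from the other condition's peaks than lost intergenic or gained gene-body regions, with 13.1% within 2 kb, and nearer to each other than lost ones.

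Every chromosome held gained regions. Their share of intergenic regions ran from 19.2% on chromosome Y (5 of 26) to 32.3% on chromosome 14 (275 of 851), around the 27.5% of the whole genome.

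The 10 strongest gained regions lay between 7.68 and 190 kb from the nearest protein-coding gene. The region with the highest lower fold, at chr12:35732940-35737377, had folds of 34.0 and 31.1 in ASC libraries 1 and 2 and lay 190 kb from Agr3. The next lay 7.68 kb from Ecm1, which encodes an extracellular matrix protein, at chr3:95724960-95727967, with folds of 31.6 and 31.1. Another, at chr4:88934209-88939241, lay 56.5 kb from the interferon gene Ifne with folds of 30.4 and 30.3.

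Another 3 of the 10 had these neighbours. Map4k4, a kinase of the stress pathway, had a region 11.2 kb away with folds of 32.5 and 29.5. Dusp5, a phosphatase that switches off ERK kinases, had one 24.6 kb away with 26.8 and 29.0. A region 45.7 kb from Cd44, the receptor for hyaluronan, lay at chr2:102944190-102950505, with folds of 32.8 and 26.6 over 6316 bases.

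The remaining 4 of the 10 strongest had folds between 25.4 and 31.1. They lay 73.4 kb from Serp2, 160 kb from the growth factor gene Bmp2, 27.2 kb from Gpr157 and 20 kb from Nfkb1, a subunit of the inflammatory regulator NF-κB. The region near Gpr157 was also 6.33 kb from the microRNA gene Mir34a, a target of p53. The ranking was by the lower of both ASC folds.

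The widest gained region spanned 15154 bases at chr4:89047974-89063127, 81.8 kb from Mtap, a gene of methionine salvage. Its folds were 23.1 and 26.9 in ASC libraries 1 and 2, and it held the start of the lncRNA Wincr1. The next widest spanned 7836 bases near Ttc7b, 6458 bases near Stn1 and 6373 bases near Hmga2, a chromatin protein of growing and embryonic cells. The last lay 150 kb from Hmga2 with folds of 16.9 and 21.5.

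Some gained regions had no protein-coding gene for more than 1 Mb. Neighbouring regions at chr14:82065517-82066511 and chr14:82064853-82065438 were 2043 and 2042 kb from Olfm4, with folds of 9.26 and 10.6 for the first and 6.91 and 4.40 for the second. A region 1638 kb from Grik2 had folds of 4.11 and 4.40, and one 1307 kb from Cox7c had 4.51 and 4.92. In all, 112 regions, or 1.86%, lay more than 500 kb from a gene.

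The limit of 2 kb cut through regions of like strength. Just beyond it lay a region 2005 bases from Pkhd1 with folds of 6.91 and 10.6, one 2006 bases from Utp14a with 5.71 and 4.92, and one 2024 bases from Fes with 9.85 and 10.9. Just within it, and so not counted, lay a region 1996 bases from Pml with 7.21 and 7.25, and one 1995 bases from Defb29 with 8.12 and 6.73. With a limit of 1 kb there were 6265 gained regions, and with 5 kb there were 5473.

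The cluster with the most gained regions, 12 in 36.5 kb at chr15:62116162-62152643, lay 126 kb from Myc, the growth-promoting transcription factor, and overlapped the lncRNA gene Pvt1. Peaks covered 17.8 and 25.3 kb of its span in ASC libraries 1 and 2, against 5.48 and 4.51 kb in the FISC libraries. The gained regions themselves spanned 13.07 kb, with no FISC peak by their choice, and FISC peaks lie between them. The second cluster, 11 regions at chr19:53394995-53434644 between the splicing gene Smndc1 and Dusp5, had 14.4 and 15.6 kb in ASC, against 1.501 and 2.55 kb in FISC.

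Other clusters stood where FISC had no peak at all. The cluster of 9 regions between Lbh and Lclat1 had 3.56 and 3.90 kb under peaks in ASC, against 0 kb in both FISC libraries. Beyond the other end of Lclat1, an enzyme that remodels cardiolipin, a cluster of 6 regions had 11.4 and 13.6 kb in ASC, against 0 kb in both FISC libraries. A cluster of 8 regions between Aldh1a3, a retinoic acid-forming enzyme, and Asb7 had 12.7 and 12.9 kb in ASC, against 0 kb in both FISC libraries. The cluster of 6 between Ifne and Mtap had 9.03 and 10.4 kb in ASC, against 0 kb in both FISC libraries, and it contains the region near Ifne named above.

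The 3 clusters described next, also among the 10 largest, held 7 regions each and had under 0.4 kb of FISC peaks. Between Prkch, a protein kinase C gene 31.4 kb away, and Hif1a, the factor of the response to low oxygen 53.6 kb away, peaks covered 6.87 and 9.29 kb in ASC, against 0 and 0.369 kb in FISC. Next to Il33, a cytokine released by damaged tissue, they covered 5.37 and 6.70 kb in ASC, against 0 and 0.353 kb in FISC. Next to Bhlhe40, a repressor of the clock, they covered 6.83 and 7.50 kb in ASC, against 0.249 and 0.208 kb in FISC.

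**Figure D4:**
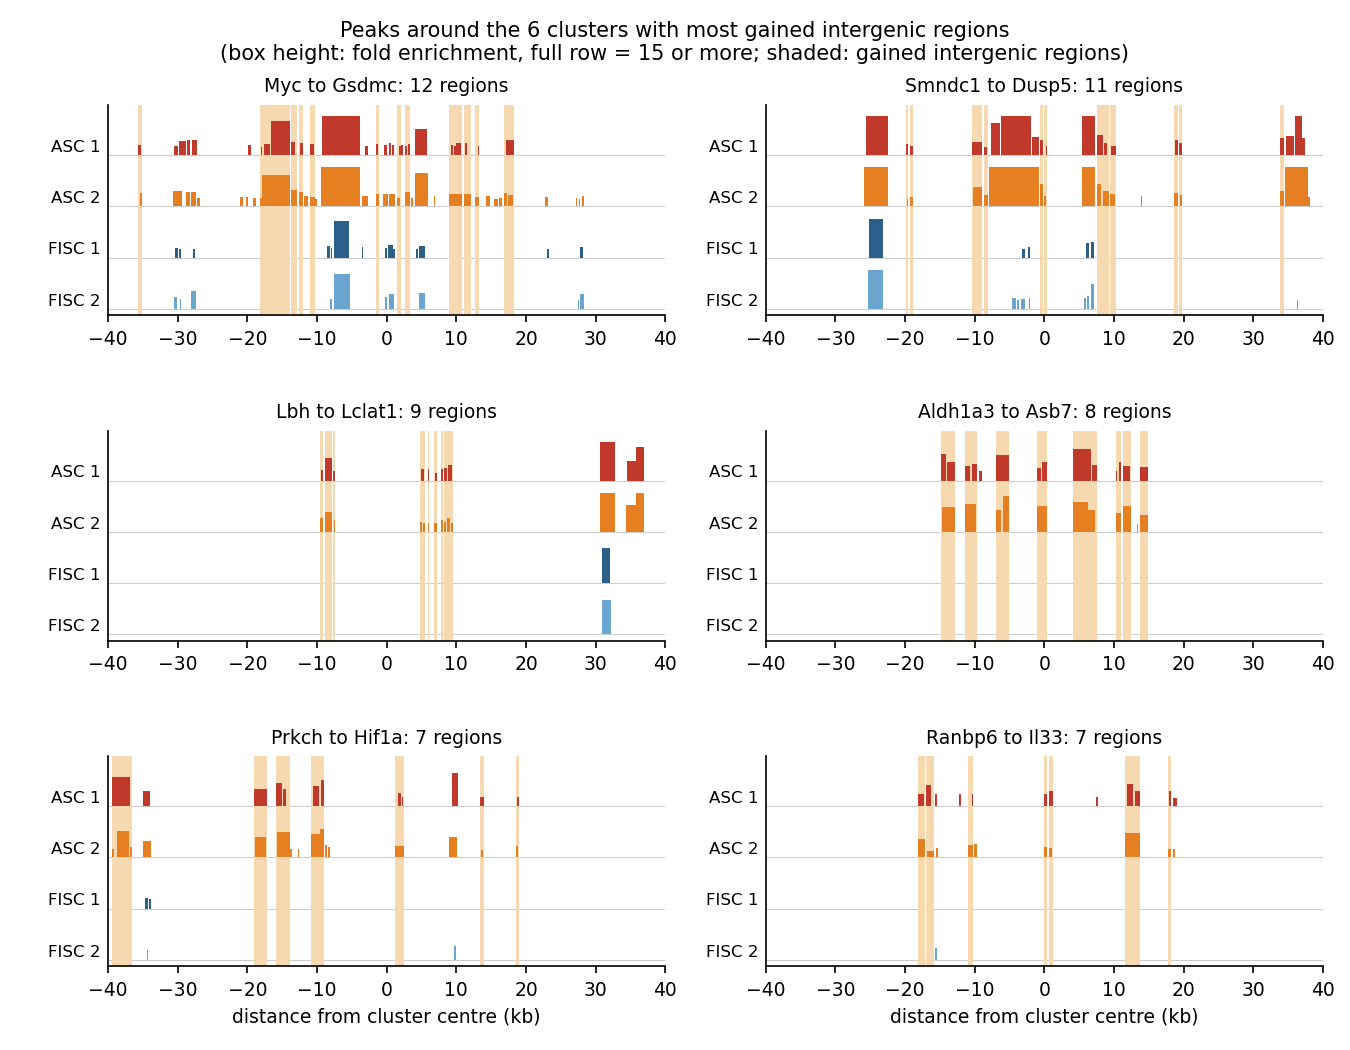
Peaks within 40 kb of the centre of the 6 clusters with the most gained intergenic regions, one panel each, with ASC libraries above FISC libraries, distance from the centre in kb along the axis and box height for fold enrichment up to 15. Shaded stretches are gained intergenic regions. FISC peaks lie between them in the cluster near Myc and in the one between Smndc1 and Dusp5 (4 and 7 in FISC libraries 1 and 2). The clusters near Hif1a and Il33 each hold 1 peak of FISC library 2.

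Assigned to the nearest protein-coding gene within 100 kb, 4519 gained regions belonged to 2509 genes, or 11.5% of 21887. A single region was nearest to 1441 of these genes, 488 genes had at least 3 and 116 had at least 5. The assignment is by distance and is no evidence of which gene a region acts on. Regions parted by short gaps count separately, as do chr17:73067066-73067493 and chr17:73067686-73068701 at Lclat1. The numbers per gene are therefore not numbers of separate sites, since 33.8% of gained regions lay within 0.5 kb of another. The highest numbers were 15 at Lclat1, 13 at Rab11fip4, 12 at Smndc1, 9 at Glrp1, and 8 each at Asb7 and Tpra1. There were 17 genes with 7 each, and the 9 of them taken into the 15 named genes, by the summed width of their regions, were Cav2, Il33, Lekr1, Phlda1, Rbpj, Slc45a1, Spdye4c, Tns3 and Zbtb10.

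All intergenic peaks nearest to a gene, gained or not, show how much was there in FISC. At Lclat1 they covered 14.9 and 17.5 kb in ASC libraries 1 and 2, against 0 kb in both FISC libraries. At Rab11fip4, a partner of the recycling GTPase Rab11, they covered 21.0 and 25.7 kb in ASC, against 4.72 and 5.77 kb in FISC. At Rbpj, the DNA-binding factor of Notch signalling, which keeps satellite cells quiescent, they covered 15.3 and 16.7 kb in ASC, against 4.52 kb in both FISC libraries. These genes were picked for their gained regions, so the excess in ASC follows in part from the choice, as it does for every gene and cluster named for such regions.

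The next values are of the same kind. Cav2, a caveolin of the cell membrane, had 10.4 and 12.4 kb in ASC, against 0.894 and 0.542 kb in FISC. Tns3, a tensin that links integrins to actin, had 8.12 and 10.7 kb in ASC, against 1.23 and 1.30 kb in FISC. Mtap, the gene nearest to the widest region, had 24.6 and 26.5 kb in ASC, against 0 kb in both FISC libraries.

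Of 16 genes of muscle stem cells and their activation, 7 had a gained intergenic region nearest within 100 kb, beside the 11.5% over all genes, and 9 had none. Myf5, Myod1 and Myog, the transcription factors that commit cells to muscle, had 0 regions, and so did Fosl1, Calcr, Hey1, Spry1, Tead1 and Tead4. Pax7 had 1, at chr4:139722073-139723586, 14.2 kb away, with folds of 4.84 and 5.06 in ASC libraries 1 and 2. Myod1 had 5.19 and 5.55 kb of intergenic peaks in ASC, against 3.84 and 4.58 kb in FISC, all of it in regions other than gained ones. Spry1, a brake on growth factor signalling in resting satellite cells, had 1.72 and 2.38 kb in ASC, against 4.72 and 5.62 kb in FISC, and 2 of the lost intergenic regions.

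Runx1, a transcription factor of proliferating myoblasts, had 7 gained regions, with 10.4 and 13.6 kb of intergenic peaks in ASC, against 0.735 and 0.884 kb in FISC. Fos, a component of AP-1, had 5, the strongest 36.2 kb away with folds of 16.2 and 16.3, and 22.1 and 27.6 kb in ASC, against 11.1 and 10.3 kb in FISC. Its partner Jun had 4 regions, with 11.7 and 14.2 kb in ASC, against 1.97 and 1.46 kb in FISC.

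Cd44 had 3 gained regions, with 17.4 and 20.4 kb in ASC, against 3.32 and 3.65 kb in FISC. Beside the strong one named above, a second lay 41.6 kb away with folds of 13.8 and 16.2 and another 3.88 kb away with 11.4 and 7.83. Met, the receptor of hepatocyte growth factor, had 3 regions, with 6.80 and 8.36 kb in ASC, against 1.60 and 2.42 kb in FISC. Hmga2 had 3 regions within 100 kb, with 3.23 and 4.10 kb in ASC, against 0 and 0.21 kb in FISC.

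Gene lists were described by the share of members with at least 1 gained region, beside 11.5% over all genes and 14.7% over genes with a covered start. Numbers of regions and regions per Mb count regions parted by short gaps separately. Extracellular matrix and adhesion genes had the highest share, 19 of 30 or 63.3%, with 53 regions or 26.5 per Mb of intergenic DNA nearest to them, against 5.60 per Mb over all genes. Has2, the enzyme that makes hyaluronan, led with 7 regions, followed by the collagen genes Col4a1 with 6 and Col6a3 with 5. Inflammatory mediators had 13 of 26 genes, or 50%, with 25.4 regions per Mb. Their leading genes were the chemokine Cxcl5 with 5 regions, the chemokine Ccl2 with 4 and the interleukin 4 receptor gene Il4ra with 4.

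Regulators and the cytoskeleton came next. The list of Runx, Tead and Hmga growth regulators had 8 of 18 genes, or 44.4% and 19.7 regions per Mb, with Runx1 at 7 regions, the matricellular gene Ccn1 at 5 and Hmga2 at 3. AP-1 and immediate early genes had 10 of 24, or 41.7% and 17.6 per Mb, led by Fos at 5, Jun at 4 and Klf6 at 3. Cytoskeleton and migration genes also had 10 of 24, at 25.5 per Mb, led by Cdc42ep3 at 6, the tropomyosin gene Tpm1 at 5 and Anxa1 at 3. Wnt and Notch genes had 9 of 23, or 39.1% and 12.1 per Mb, with Rbpj at 7, and Tcf7l2 and Fzd7 at 4 each.

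The lists of satellite cell identity, quiescence, cell cycle and commitment ran from 23.3 to 35.0%. Satellite cell identity genes had 7 of 20, at 9.97 regions per Mb, with Met and the chemokine receptor gene Cxcr4 at 3 each and Musk at 2. Cxcr4 also had 2 lost intergenic regions, and its intergenic peaks covered 3.59 and 4.52 kb in ASC, against 4.19 and 4.82 kb in FISC. Quiescence genes had 8 of 24, or 33.3% and 10.05 per Mb, with Col5a1 at 5, the Notch target Hes1 at 4 and Foxo1 at 3. Cell cycle genes had 9 of 30, or 30.0% and 19.6 per Mb, with the G1 kinase gene Cdk6 at 6, Myc at 5 and Mki67 at 4. Myogenic commitment genes had 7 of 30, or 23.3% and 12.6 per Mb, with Mef2a at 5, Chrna1 at 4 and Ncam1 at 2.

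Signalling and metabolic lists stood between 27.3 and 28.0%. TGF-β and BMP genes had 7 of 25, or 7.01 regions per Mb, led by the differentiation inhibitor Id2 at 5. Glycolysis genes had 5 of 18, or 21.7 per Mb, led by the glucose transporter gene Slc2a1 at 6 and the lactate transporter gene Slc16a1 at 4. Growth factor genes had 6 of 22, or 6.88 per Mb, led by Vegfa at 4, Hgf at 3 and Ereg at 2. Per Mb the TGF-β and growth factor lists thus lay under the 8.71 of genes with a covered start.

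Lists of other cell types ran from 6.67% for myeloid genes (1 of 15) to 33.3% for endothelial genes (5 of 15, at 7.37 regions per Mb). Fibro-adipogenic genes had 3 of 15, or 20%, and neuronal genes 3 of 11, or 27.3%. Smooth muscle genes and Schwann and tendon genes had 2 of 15 each, lymphoid genes had 1 of 14 and liver genes 1 of 10. Per Mb, smooth muscle genes had 11.8 regions, above the 8.71 of genes with a covered start. The other lists of other cell types ran from 2.53 per Mb for liver genes to 7.57 for neuronal genes. The part of other cell types in the gained regions was not tested. With lists cut to equal covered length, 503 of all 21887 genes had a gained region. The counts were then 3 of 30 for matrix and adhesion genes, 2 of 26 for inflammatory genes and 0 for the satellite cell identity and quiescence lists. They were 4 of 23 for Wnt and Notch genes, 4 of 30 for cell cycle genes and 3 of 25 for TGF-β and BMP genes. Matrix and adhesion genes thus no longer had the highest share.

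**Figure D5:**
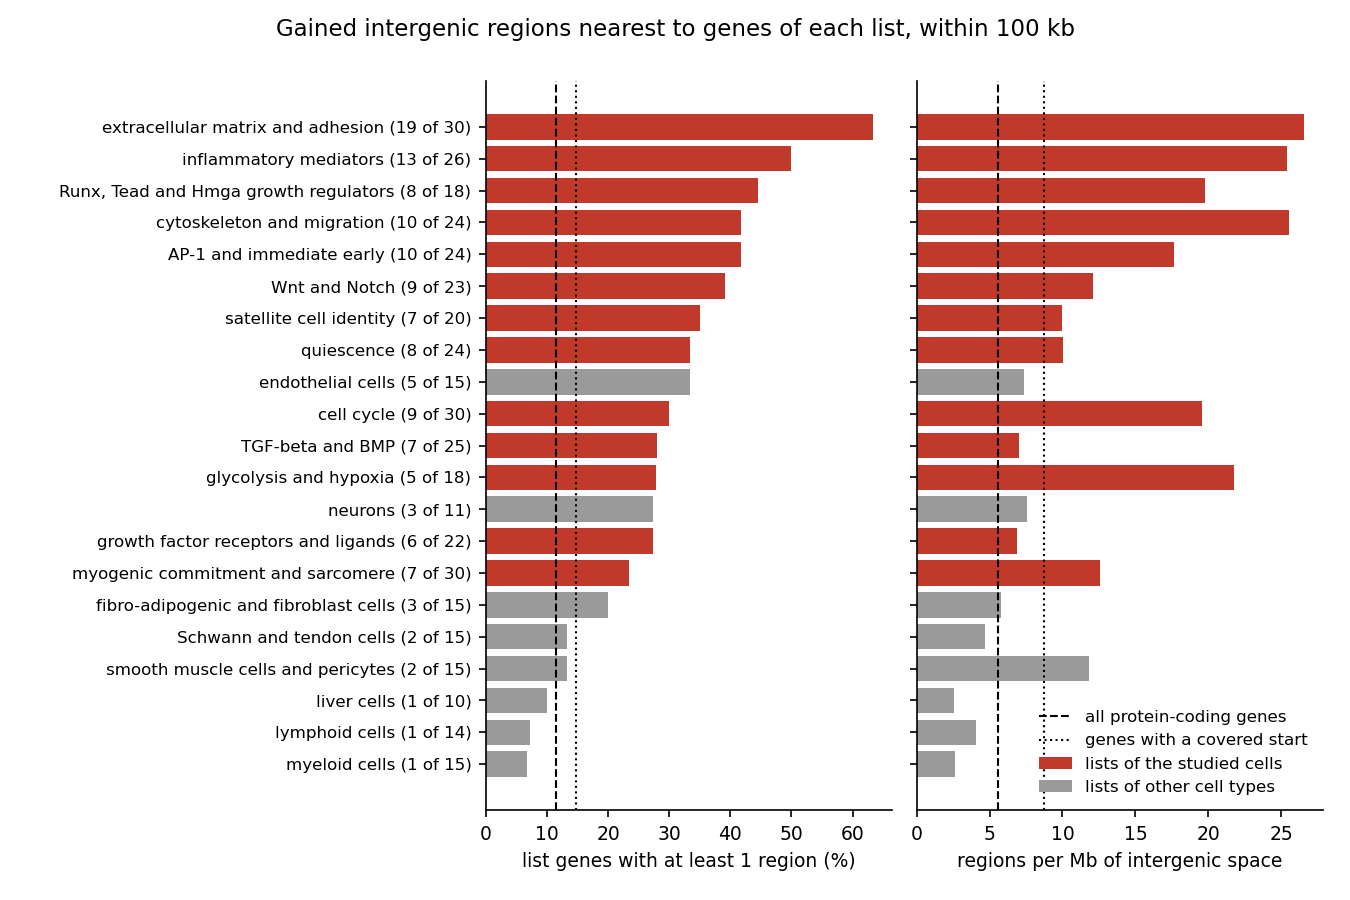
Percentage of each gene list with at least 1 gained intergenic region nearest within 100 kb (left) and gained regions per Mb of intergenic DNA nearest to the list (right), with lists of the studied cells in red and of other cell types in grey. The dashed line is all protein-coding genes (11.5%, 5.60 per Mb) and the dotted line genes with a covered start (14.7%, 8.71 per Mb), and matrix and adhesion genes stand highest at 63.3%.

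Gained intergenic regions and gained regions inside the gene occurred at many of the same genes. Both kinds were found at 764 genes, which is 30.5% of the 2509 genes with a gained intergenic region and 24.6% of the 3110 genes with a gained region in the body. Over all genes 14.2% had a gained body region. Runx1 had 20 regions in its body, Tns3 had 19, Met had 15 and Cdk6 had 11. Tead1 had 11 body regions and no intergenic one. These shares and counts take no account of gene length or of the intergenic DNA beside each gene, and the part of both was not tested.

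The width of the mark at gene starts was measured as kb under peaks within 2 kb of the start. It comes from the same libraries and contrast as the choice of regions, so the counts are a description. Of 12641 genes fitted with limma, 3363, or 26.6%, rose and 444, or 3.51%, fell at a Benjamini-Hochberg adjusted p of 0.05. Of the 1854 fitted genes with a gained intergenic region nearest, 660 rose, or 35.6%, and 52 fell, or 2.80%. Divided by each library's total covered length, the split turned, with 203 higher and 715 lower among these genes and 979 higher and 5009 lower among all. That scaling moves the median difference of all genes from 0.285 to −0.36 kb. Lists cut to equal covered length gave 412 higher and 170 lower of 1748 such genes. Higher starts numbered 369 without ASC library 2, 255 without FISC library 1 and 234 without FISC library 2, and lower ones 28 without ASC library 1, 8 without FISC library 1 and 5 without FISC library 2.

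Starts of several genes with gained regions were wider in ASC. Hmga2 had 3.79 and 3.90 kb in ASC, against 0 and 0.2 kb in FISC, a difference of 3.74 kb (SE 0.143, limma adjusted p = 0.00133). Runx1 had the full 4 kb in both ASC libraries, against 0.75 and 0.961 kb in FISC, a difference of 3.14 kb (SE 0.136, limma adjusted p = 0.00133). Both differences kept their sign under every scaling tried.

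Met and Cd44 depended on the scaling. Met had 4 kb in both ASC libraries, against 1.98 and 2.30 kb in FISC (limma adjusted p = 0.00239), and missed the threshold when divided by total covered length (adjusted p = 0.133). Cd44 had 3.40 and 3.59 kb in ASC, against 2.65 and 2.67 kb in FISC (limma adjusted p = 0.00841), and its difference of 0.837 kb turned to −0.54 kb under that division. Calcr, with no gained region, had 0 kb in both ASC libraries, against 1.31 and 0.947 kb in FISC (limma adjusted p = 0.00704, and 0.0635 without the filter on low values).

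Starts of Pax7 (difference −0.11 kb, limma adjusted p = 0.62), Fos (0.126 kb, 0.399) and Jun (0.238 kb, 0.217) did not pass the test, nor did those of Myf5, Myod1 and Myog. The measure cannot exceed 4 kb, and Jun was near that limit with 3.85 and 4 kb in ASC, against 3.84 and 3.53 kb in FISC. The signs for Fos and Jun also turned when divided by total covered length.

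MicroRNA genes beside gained regions, picked after their values were seen, add to the 4 hairpins inside them. In all 62 hairpins lay within 10 kb of a gained region. Mir29b-2 and Mir29c lay 1.94 and 2.44 kb from a region with folds of 5.11 and 4.14, so both genomic pairs of the miR-29 family had a gained region in or near them. Mir322 and Mir503, known from cell cycle exit in muscle cells, lay 1.85 and 2.15 kb from a region with folds of 9.32 and 10.6. Mir133b, a microRNA of muscle, lay 7.73 kb from a region with 9.02 and 7.48, and Mir222 lay 9.70 kb from one with 14.3 and 10.6. Mir21a lay 4.92 kb from a region with 5.19 and 5.96, and its mature sequence has the seed of miR-21c.

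Of the lncRNA genes that start in gained regions, the 10 strongest had lower folds of at least 13.2. They were Gm38512 (23.6 and 24.1), Wincr1 (23.1 and 26.9), Gm40673 (20.3 and 22.5), 8430423G03Rik (19.8 and 19.4), 4732419C18Rik (18.9 and 23.6), Gm9875, Gm40732 (15.6 and 15.7), Gm12415, Gm52779 (13.6 and 17.6) and Gm26535 (15.9 and 13.2), with folds in ASC libraries 1 and 2. Each start lies in a region free of FISC peaks by the choice of regions, and whether the RNA is made was not measured here.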

How the data were processed

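H3K27ac ChIPmentation libraries (2 ASC, 2 FISC) were analysed from the deposited peak lists, 1 per library. BWA, Picard, MACS2 and bcl2fastq 2.19 were used with the build mm10, per the submitters' processing notes. The inputs were not used, and their role, the caller settings and the read depth have no statement in the sources used here. The deposited fold enrichment is the authors' ratio at the summit over local background. The deposited −log10 p and −log10 q values and the deposited score (10 times −log10 q, as an integer) come from the same caller. Fold and p depend on each library's depth, so folds were compared mainly within a library.

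Lists were merged at an overlap of 1 base and placed against RefSeq genes of GRCm38.p6 (the assembly of mm10). Regions shared by all libraries were compared by exact 2-sided permutation tests. Start width was fitted with limma 3.58.1 (R 4.3.3, trend, no scaling) on genes covered in at least 2 libraries, after a test on simulated data. Annotated starts were used where given, otherwise the better covered gene end. Python 3.11.15, pandas 2.3.3 and scipy 1.17.1 did the rest. Sequences are RefSeq's, on GRCm38.p6. No genome was used, so motifs and GC content inside peaks were not analysed here.

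Named were the 10 strongest, 5 widest and 5 farthest regions, regions at the 2 kb limit, the 10 largest clusters, the 15 genes with the most regions, 3 genes per list, 16 muscle stem cell genes, and noncoding genes in regions, with predicted protein-coding genes left out. The 21 lists had 425 entries, of which 424 matched. Members, lists and tests were chosen with earlier results of these data known. Alternatives were stricter peaks, equal list lengths, other overlaps, distances, windows, filters and scalings, and each library left out. Same-numbered libraries did not deviate together at gene starts (correlation −0.00806). The labels do not say whether they were prepared together, and this correlation cannot settle it, so the main fits used no pairing. A few items covered by the naming rule are not reported here.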

Additional observations from a re-analysis of the deposited data

How the results depend on the processing

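With −log10 q of at least 5 there were 1120 lost regions and 46.2% of gained regions lay in clusters. With a fold of at least 5 there were 3607 gained and 602 lost regions, with 39.6% in clusters. At equal covered length there were 728 gained and 4105 lost regions, 14.4% in clusters, 503 genes with a gained region, and intergenic length outside gained regions was 1.44 Mb lower in ASC (−1.44 Mb, against 1.42 Mb higher with whole lists). The starts then gave 412 rises and 170 falls. The share in clusters was 50.2% at equal peak number, 30.6% with peaks joined within 500 bases, 52.9% against all annotated genes, 46.3% at a gap of 5 kb and 63.5% at 25 kb.

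Leaving out 1 library gave 6461 to 9486 gained regions, 1936 to 3700 lost regions, 55.9 to 67.6% in clusters, 234 to 611 start rises and 5 to 45 start falls. Divided by total covered length there were 203 rises and 715 falls, and the start differences turned to −1.36 kb at Fos, −1.51 kb at Jun, −0.54 kb at Cd44, −1.11 kb at Tead1 and −0.96 kb at Spry1. No filter gave 253 and 18, and a window of 1 kb gave 316 and 18. The replicate block gave 610 rises and 45 falls, and whether the numbers pair libraries is unknown. The cause of these shifts was not tested, except that leaving out a library loosens the rule and stricter lists hold fewer peaks. The search in windows of 150 and 500 bases around summits was not run. Depth is unknown and 2 libraries per condition limit every permutation test to p = 0.333.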
